A study of Mus musculus with 9 samples.

Results

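The IR_Matn3_ko libraries were compared with the sham_WT libraries, gene by gene, over all expressed genes. IR_Matn3_ko mice carried a Matn3 knockout and underwent tMCAO (transient occlusion of the middle cerebral artery, here for 60 min, with 1 day of reperfusion after it), and their libraries came from the peri-infarct area of the ischemic cortex. IR_WT mice were wild type with the same operation and the same area sampled, and sham_WT mice were wild type with sham surgery and cerebral cortex sampled. Each group had 3 mice, so 6 of the 9 samples of the series entered this comparison and the 3 IR_WT samples stand beside it. Genotype, surgery and the part of the cortex sampled all differ between IR_Matn3_ko and sham_WT, and their effects cannot be told apart here. A sham-operated knockout group was not analysed here, and the labels give neither the strain nor the age of the mice nor how the Matn3 allele was made. Of 37893 genes in the deposited table, 17247 were expressed highly enough to test.

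When blood flow to part of the cortex stops, neurons in the core die within hours. In the surrounding tissue astrocytes and microglia become reactive, vessels admit leukocytes, and over days astrocytes and fibroblasts build a scar rich in extracellular matrix. Matrilin-3, the product of Matn3, is an oligomeric matrix protein best known from cartilage, and the series was designed to ask how it limits glial scar formation. CPM values below are deposited counts scaled to a common library size, a log2 fold change (IR_Matn3_ko over sham_WT) of 1 is a doubling, and a gene is past the threshold, or called, where edgeR's quasi-likelihood test gave an adjusted p below 0.05. A value after ± beside a fold change is its standard error (3 libraries a side).

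The libraries held 53400376 to 68370527 counts each, at which a count of 0 allows up to 0.0439 to 0.0562 CPM (counting error only). Matn3 (chromosome 12, 8947929 to 8972028, GRCm38) had 0, 17 and 0 counts in IR_Matn3_ko, 33, 12 and 48 in IR_WT and 0, 4 and 26 in sham_WT. Its mean was 0.0249 ± 0.0431 FPKM (fragments scaled to gene length and library size; SD, n = 3) in IR_Matn3_ko and 0.0513 ± 0.0734 FPKM in sham_WT, and a two-sided exact permutation test of the difference gave p = 0.7 ( 3 against 3 libraries cannot give a p below 0.1). The gene is too low in cortex to check the genotype, and the library labelled IR_Matn3_ko 2 held 17 counts, more than sham_WT 1 and sham_WT 2 held. Without that library 3104 genes passed, against 3887 with it, and no named gene changed direction.

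Transcripts of tissues other than brain also separated the groups, and the division they make is carried through the results below. Markers of the small intestine summed to 429.9, 337 and 109 CPM of the library total in IR_Matn3_ko, to 16.3, 512 and 341 CPM in IR_WT and to 12.1, 12.6 and 14.2 CPM in sham_WT, with all 18 markers higher in every IR_Matn3_ko library than in any sham_WT library. Of these, 9 markers, including Fabp2 and Apoa4, had no count in sham_WT. B cell markers ran the other way, at 18.6, 17.7 and 15.0 CPM in IR_Matn3_ko, 220.3, 31.9 and 19.9 CPM in IR_WT and 223, 321 and 286 CPM in sham_WT, and all 12 were lower in every IR_Matn3_ko library. Beside these counts, 42.5% of all tested genes did not overlap between IR_Matn3_ko and sham_WT in scaled CPM, in either direction. Keratinocyte markers summed to 24.9, 19.7 and 22.7 CPM in IR_Matn3_ko and 123, 65.3 and 68 CPM in sham_WT, with Krt5 and Krt14 at 0 in IR_Matn3_ko. Of the sums in sham_WT, Krt5 held 52.3, 23.4 and 24.2 CPM and Krt14 40.5, 15.5 and 16.7 CPM. The list was not uniform: of its 12 markers 4 were lower and 3 higher in every IR_Matn3_ko library than in any sham_WT library. Cartilage markers summed to 25.7, 22.4 and 24.1 CPM in IR_Matn3_ko and 36.9, 275 and 280.2 CPM in sham_WT, high in sham_WT 2 and 3 only. All 3 IR_Matn3_ko libraries, IR_WT 2 and IR_WT 3 thus form one library set by intestinal transcripts, and all 3 sham_WT libraries and IR_WT 1 the other. Only IR_WT lies in both sets, so a model term for the set rests on IR_WT 1 against IR_WT 2 and 3, and whatever else sets that mouse apart enters it. Values with this library set term are given where they end a named gene's call or move a list's count of calls by more than 1.5 times.

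**Figure D1:**
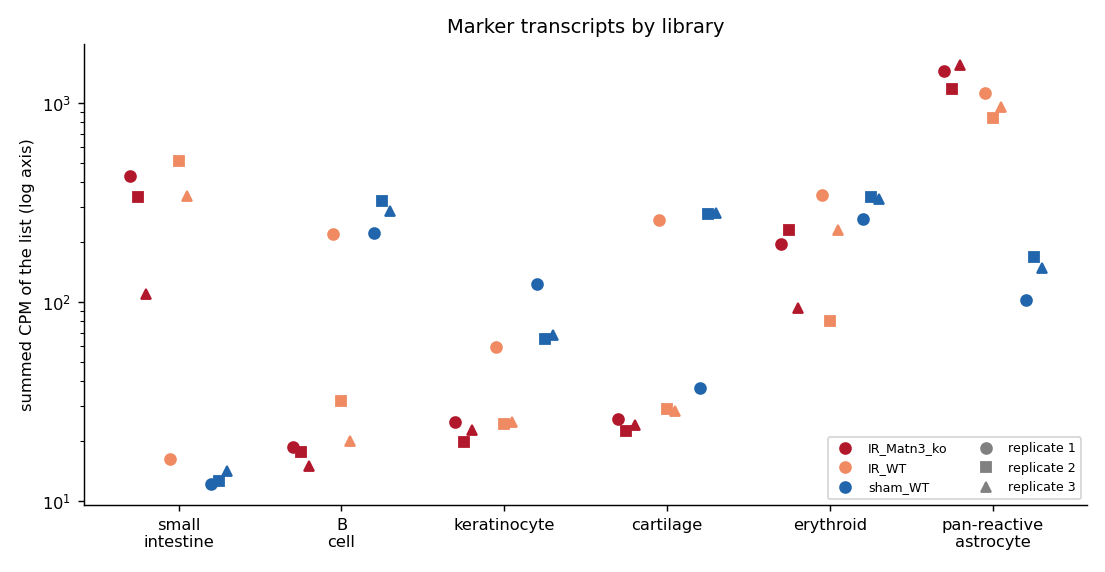
Summed CPM of the library total (log axis) of 6 marker lists in each library, with IR_Matn3_ko in red, IR_WT in orange and sham_WT in blue, and a marker shape for each replicate number. Small intestine markers are high and B cell markers low in the 3 IR_Matn3_ko libraries and in IR_WT 2 and 3, whereas pan-reactive astrocyte markers are high in all 6 ischemic libraries.

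Across all tested genes 3887 passed the threshold (22.5% of 17247), 2037 higher (11.8%) and 1850 lower (10.7%) in IR_Matn3_ko. Of these, 839 were higher and 482 lower by at least 2-fold, and the median size of a called change was 0.709 on the log2 scale. The 3 IR_Matn3_ko libraries lay wholly above or below the 3 sham_WT libraries for 7326 genes (42.5%). Large increases were more numerous than large decreases, with 250 genes called at least 8-fold higher and 81 at least 8-fold lower. With the library set term 1071 genes passed (6.21%), 616 higher and 455 lower, of which 940 were among the 3887 with the same direction. Of the 250 genes called at least 8-fold higher 97 passed with that term, and of the 81 at least 8-fold lower 0 did. The split into higher and lower depended on scaling: 52.4% of calls were higher here, but 75.2% where library totals alone set the scale (3508 against 1158 genes), 71.7% by limma on log2(FPKM + 1) (3088 and 1216) and 72.7% on log2(FPKM + 0.1) (2913 and 1093). With no scaling factors the median of all genes itself moved to 0.14, and for limma to 0.09 and 0.12, so small decreases below are relative to the median gene. Leaving out IR_Matn3_ko 3, sham_WT 1 or sham_WT 2 left 2608, 2139 and 2347 genes. Fewer cells of a type and less RNA per cell cannot be told apart in these bulk samples.

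**Figure D2:**
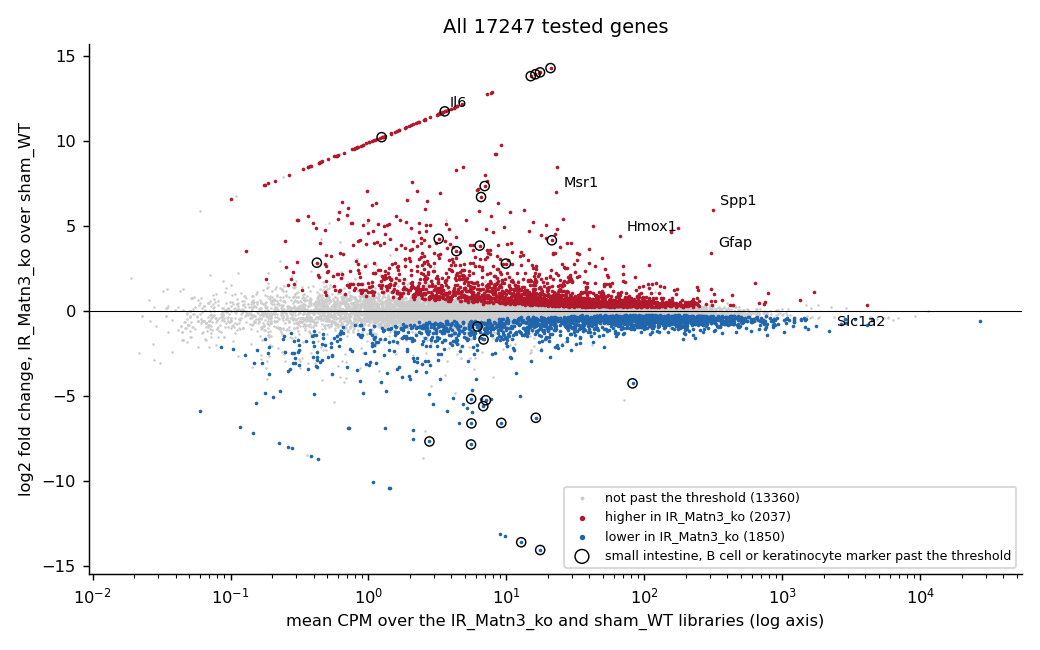
Log2 fold change of IR_Matn3_ko over sham_WT against mean CPM over both groups (log axis) for all 17247 tested genes, with called genes in red (2037 higher) and blue (1850 lower) and called markers of small intestine, B cell and keratinocyte circled. The line of points at the upper left is genes with no count in sham_WT, whose fitted fold change depends on the fit's prior count and is no measured size. The circled markers hold many of the most extreme values, while Spp1, Msr1, Hmox1 and Gfap lie well above the bulk at high level.

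The 12 largest increases under the naming rule were all transcripts known from the intestine. Reg3b, an antimicrobial lectin of enterocytes, had 99.3, 23.1 and 2.97 CPM in the IR_Matn3_ko libraries and no count in sham_WT, at least 799-fold higher when sham_WT is set to a floor of 3 counts per library. The lipid-handling proteins Apoa4 and Fabp2 and the Paneth cell lysozyme Lyz1 were equally absent from sham_WT, at least 682-fold, 630.3-fold and 666-fold higher. The alpha-defensins Defa24, Defa20 and Defa22, copies so alike that their separate values are uncertain, were at least 282-fold, 186-fold and 170.4-fold higher. Reg3g, Lypd8, Clca4b, Zg16 and Clec2h completed the 12, between at least 165-fold for Clec2h and at least 574-fold higher for Reg3g. None of the 12 passed with the library set term (adjusted p = 0.187 for Lyz1 and close to 1 for the others), and all but Lyz1 missed the threshold in at least 2 of the 9 fits that left out 1 library (adjusted p up to 0.093, for Reg3b). The set is defined by the summed small intestine markers, which include Reg3b, Reg3g, Apoa4 and Fabp2. A loss of intestinal genes under that term is thus built in and is no separate result.

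The 12 largest decreases were keratins and lymphocyte genes. Krt5 and Krt14, the paired keratins of basal epidermal cells, had no count in IR_Matn3_ko. Krt5 had 55.3, 24.6 and 25.5 CPM in sham_WT and was at least 694-fold lower in IR_Matn3_ko, and Krt14 was at least 506-fold lower. Krt6a and Krt17 were at least 389-fold and 357-fold lower. The chemokine receptor Ccr6 and the immunoglobulin variable genes (Igkv3-4, Igkv16-104, Igkv4-91 and Ighv2-9) were at 0 in IR_Matn3_ko as well, at least 8.85-fold to 55.5-fold lower. The IgM receptor Fcmr, with 0.112, 0.0282 and 0 CPM in IR_Matn3_ko, against 7.61, 13.3 and 12.2 CPM in sham_WT, the B cell kinase Blk and Fcrla made up the rest. None of the 12 passed with the library set term (adjusted p = 0.0738 or more), where Fcrla lay the other way (log2 fold change 4.07, adjusted p = 0.348). Only Igkv3-4, Ighv2-9 and Igkv4-91 passed whichever library was left out, and adjusted p reached 0.113 for Fcrla.

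Ranked by p-value instead, the first 6 increases were those of Cd68, Gpr84, C3ar1, Msr1, Tgm2 and Ctsc. The endosomal glycoprotein Cd68, a marker of phagocytes (chromosome 11, 69664213 to 69666153), had 56.2, 57.0 and 49.7 CPM in IR_Matn3_ko, against 7.59, 7.94 and 8.4 CPM in sham_WT, a log2 fold change of 2.77 ± 0.11 (adjusted p = 3.79e-06). Gpr84, a fatty acid receptor of activated myeloid cells, had 15.6, 14.6 and 15.9 CPM in IR_Matn3_ko, against 0.515, 0.556 and 0.717 CPM in sham_WT. The groups lay far apart for both, and the fold change of Gpr84 was 4.68 ± 0.20 (adjusted p = 4.6e-06). C3ar1, the receptor for the complement fragment C3a (chromosome 6, 122847138 to 122856161), rose by 3.76 ± 0.17 (adjusted p = 4.6e-06), with 43.8, 51.6 and 42.3 CPM in IR_Matn3_ko, against 3.86, 3.18 and 3.11 CPM in sham_WT. The scavenger receptor Msr1 (chromosome 8, 39581685 to 39642673) had 44.7, 39.0 and 53.6 CPM in IR_Matn3_ko, against 0.416, 0.296 and 0.359 CPM in sham_WT, the largest fold change of these genes at 7.00 ± 0.33 (adjusted p = 6.2e-06). Transglutaminase 2, Tgm2, which cross-links proteins, had 90.5, 79.2 and 96.6 CPM in IR_Matn3_ko, against 8.24, 9.41 and 12.3 CPM in sham_WT and rose by 3.15 ± 0.15 (adjusted p = 6.68e-06). The lysosomal protease cathepsin C, Ctsc, rose by 2.29 ± 0.11 (adjusted p = 6.68e-06). Within each of these 6 genes the 3 IR_Matn3_ko libraries lay close together, including the library labelled IR_Matn3_ko 2. All passed whichever library was left out and with the library set term.

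The decreases with the smallest p were modest in size. Camkk2, a calcium-activated kinase that activates AMPK and is abundant in neurons (chromosome 5, 122731170 to 122779409), had 127, 95.0 and 126 CPM in IR_Matn3_ko, against 359.8, 356 and 344 CPM in sham_WT, a log2 fold change of -1.61 ± 0.12 (adjusted p = 4.13e-05). Nwd1 and Tmem44 fell as well (-1.18 and -1.22). The glial connexin Gjc3 had 21.0, 22.3 and 22.4 CPM in IR_Matn3_ko, against 60.5, 69.6 and 49.7 CPM in sham_WT (log2 fold change -1.45 ± 0.12, adjusted p = 6.16e-05). The synaptic organizer cerebellin-2, Cbln2, had 12.7, 12.6 and 12.4 CPM in IR_Matn3_ko, against 44.3, 40.9 and 42.3 CPM in sham_WT (log2 fold change -1.76 ± 0.14, adjusted p = 6.52e-05). No IR_Matn3_ko library reached the lowest sham_WT library for any of these 5 genes, and all 5 passed in every fit that left out 1 library and with the library set term.

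Astrocytes are the glial cells that clear glutamate and buffer potassium, and after injury they raise intermediate filaments and secreted factors. All 13 measured pan-reactive markers rose, and the list median of the log2 fold change was 3.06, beside 0.00 for all tested genes. Gfap, the intermediate filament that defines reactive astrocytes (chromosome 11, 102887336 to 102897200), had 685, 380.3 and 615 CPM in IR_Matn3_ko, against 35.9, 70.0 and 49.1 CPM in sham_WT. All IR_Matn3_ko libraries stood well above the highest sham_WT library, and the fold change was 3.44 ± 0.28 (adjusted p = 7.79e-05). The acute-phase protease inhibitor Serpina3n (chromosome 12, 104406729 to 104414329) had 292, 234 and 380.4 CPM in IR_Matn3_ko, against 10.4, 12.5 and 12.6 CPM in sham_WT (log2 fold change 4.67 ± 0.28, adjusted p = 1.49e-05). The lipocalin Lcn2 had 38.3, 11.2 and 41.2 CPM in IR_Matn3_ko, against 0.812, 0.537 and 1.08 CPM in sham_WT, lowest in the library labelled IR_Matn3_ko 2 among the 3 (log2 fold change 5.22 ± 0.62, adjusted p = 0.000592). The small heat shock protein Hspb1 was instead highest in that library, with 29.6, 62.8 and 31.9 CPM in IR_Matn3_ko, against 3.35, 1.98 and 6.15 CPM in sham_WT (log2 fold change 3.44 ± 0.50, adjusted p = 0.00155). In the fit with the library set term 10 of the 13 passed. Hspb1 (adjusted p = 0.0566) missed the threshold with the library set term.

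Markers named A1 and A2, first described after lipopolysaccharide and after stroke, both rose. Of 11 tested A2-type markers 10 rose and 0 fell, with a median of 2.45. The keratinocyte transglutaminase Tgm1, which reactive astrocytes also make, had 20.9, 16.7 and 25.2 CPM in IR_Matn3_ko, against 0.594, 0.0185 and 0.472 CPM in sham_WT (log2 fold change 5.86 ± 0.79, adjusted p = 0.00104). The lipopolysaccharide coreceptor Cd14 had 67.7, 31.2 and 149 CPM in IR_Matn3_ko, against 2.81, 1.98 and 2.85 CPM in sham_WT (log2 fold change 5.02 ± 0.52, adjusted p = 0.000296). IR_Matn3_ko 3 was the highest library for Cd14 and for the solute carrier Slc10a6, which rose by 5.39 ± 0.65 (adjusted p = 0.00063). The pentraxin Ptx3 had 8.91, 4.36 and 8.51 CPM in IR_Matn3_ko, against 0.218, 1.24 and 1.51 CPM in sham_WT, without overlap (log2 fold change 2.87 ± 0.73, adjusted p = 0.0204). Of 13 A1-type markers 10 rose and 0 fell (median 1.42), but 6 without sham_WT 1. Among them were the C1 inhibitor Serping1 (log2 fold change 2.41 ± 0.31, adjusted p = 0.000815), complement C3 (log2 fold change 2.34 ± 0.38, adjusted p = 0.00286), the elastic fibre protein fibulin-5, Fbln5 (log2 fold change 1.63 ± 0.22, adjusted p = 0.000946) and the glycosyltransferase Ggta1 (log2 fold change 1.53 ± 0.21, adjusted p = 0.00125). Microglia and vessel cells make several of the same transcripts, and their part in these counts was not tested. Under the library set term 7 A2-type and 6 A1-type markers passed. Ptx3 (adjusted p = 0.109) and C3 (adjusted p = 0.109) missed the threshold with the library set term. Ptx3 lost the call without IR_Matn3_ko 3, sham_WT 1 or sham_WT 2 (adjusted p up to 0.057).

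Genes of resting astrocytes lay lower. Of 15 measured members 8 fell and 0 rose (median -0.61). The glutamate transporter Slc1a2, which takes up most synaptic glutamate in cortex (chromosome 2, 102658659 to 102790784), had 1450.5, 1083 and 1519 CPM in IR_Matn3_ko, against 2854, 3314 and 2948 CPM in sham_WT. The libraries did not overlap, and the fold change was -1.17 ± 0.15 (adjusted p = 0.000723). The inward rectifier potassium channel Kcnj10 had 156, 77.8 and 128 CPM in IR_Matn3_ko, against 225, 271 and 198 CPM in sham_WT (log2 fold change -0.94 ± 0.21, adjusted p = 0.013). Glutamine synthetase, Glul, had 1002, 564 and 960.5 CPM in IR_Matn3_ko, against 1519, 1592 and 1565 CPM in sham_WT (log2 fold change -0.89 ± 0.18, adjusted p = 0.00858), and the growth factor receptor Fgfr3 fell, at -0.88 ± 0.21 (adjusted p = 0.0169). For Slc1a2, Kcnj10 and Glul the library labelled IR_Matn3_ko 2 was the lowest of all. The pan-astrocyte gene Aldh1l1 (0.00) and the water channel Aqp4 (-0.38) did not pass. The number of lower calls was 2 without sham_WT 2 and 5 without sham_WT 3, and 2 with the library set term. Kcnj10 (adjusted p = 0.165) and Glul (adjusted p = 0.113) missed the threshold with the library set term. Kcnj10 lost the call without sham_WT 2 (adjusted p = 0.0516) and Fgfr3 without sham_WT 2 or sham_WT 3 (adjusted p up to 0.0522).

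Microglia, the resident phagocytes of the brain, lose surveillance receptors and gain lysosomal and lipid genes when activated, and macrophages that enter from the blood share much of that profile. Of 20 markers of activation 15 rose and 1 fell, and the list median was 2.63. Osteopontin, Spp1, a secreted phosphoprotein (chromosome 5, 104435118 to 104441050), had 571, 711 and 562 CPM in IR_Matn3_ko, against 7.63, 10.6 and 11.9 CPM in sham_WT (log2 fold change 5.94 ± 0.37, adjusted p = 1.78e-05). Per length its mean level was 352 FPKM in IR_Matn3_ko and 5.22 FPKM in sham_WT. The cholesterol hydroxylase Ch25h had 16.5, 13.5 and 15.2 CPM in IR_Matn3_ko, against 0.159, 0.278 and 0.491 CPM in sham_WT (log2 fold change 5.60 ± 0.36, adjusted p = 2.19e-05). The beta-glucan receptor dectin-1, Clec7a, had 4.63, 5.25 and 19.9 CPM in IR_Matn3_ko, against 0.416, 0.222 and 0.0755 CPM in sham_WT, highest in IR_Matn3_ko 3 (log2 fold change 5.38 ± 0.77, adjusted p = 0.00142). Apoe, the lipoprotein that astrocytes also make, was the 1 member that fell (log2 fold change -1.07 ± 0.23, adjusted p = 0.00979), and the lipid sensor Trem2 and the receptor kinase Axl did not pass (0.39 and -0.30). The count of calls in this list was 16 whichever library was left out, and with the library set term 12 members passed higher and 1 lower.

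Homeostatic microglia genes moved in both directions. Of 12 measured members 4 rose and 3 fell, with a median of -0.10 here and 0.04 with no scaling factors. The purinergic receptor P2ry12, with which microglia sense injury (chromosome 3, 59216272 to 59262871), had 15.4, 14.2 and 11 CPM in IR_Matn3_ko, against 54.9, 50.4 and 46.9 CPM in sham_WT (log2 fold change -1.91 ± 0.16, adjusted p = 9.7e-05). The lectin Siglech had 6.15, 2.85 and 2.59 CPM in IR_Matn3_ko, against 17.0, 15.5 and 16.2 CPM in sham_WT (log2 fold change -2.07 ± 0.36, adjusted p = 0.0035), and the selectin ligand Selplg fell (log2 fold change -1.18 ± 0.21, adjusted p = 0.0046). Against these, the Fc receptor-like gene Fcrls had 80.9, 119.6 and 59.9 CPM in IR_Matn3_ko, against 22.9, 21.6 and 20.5 CPM in sham_WT (log2 fold change 2.00 ± 0.22, adjusted p = 0.000364), and Olfml3 and Cx3cr1 rose by 1.17 and 0.60. Tmem119, Sall1 and Csf1r did not pass (-0.13, -0.07 and 0.22). Higher calls numbered 1 with the library set term. Olfml3 (adjusted p = 0.0831) and Cx3cr1 (adjusted p = 0.172) missed the threshold with the library set term.

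Markers of macrophages at the borders of the brain were mostly higher. Of 10 listed, 6 were expressed highly enough to test, 4 rose and 1 fell. The scavenger receptor Stab1 had 55.9, 56.0 and 44.5 CPM in IR_Matn3_ko, against 11.4, 13.9 and 13.5 CPM in sham_WT (log2 fold change 2.01 ± 0.13, adjusted p = 2.38e-05). The hyaluronan receptor Lyve1 had 5.48, 1.62 and 8.33 CPM in IR_Matn3_ko, against 0.674, 0.204 and 0.208 CPM in sham_WT (log2 fold change 3.83 ± 0.75, adjusted p = 0.00666). The factor XIII subunit F13a1 had 5.52, 4.43 and 11.3 CPM in IR_Matn3_ko, against 1.66, 1.63 and 1.59 CPM in sham_WT (log2 fold change 2.12 ± 0.39, adjusted p = 0.00482). Platelet factor 4, Pf4, was low, at 1.48, 0.833 and 1.10 CPM in IR_Matn3_ko, against 0.277, 0.037 and 0 CPM in sham_WT (log2 fold change 3.44 ± 0.86, adjusted p = 0.0194). The carbonyl reductase Cbr2 fell (log2 fold change -1.63 ± 0.46, adjusted p = 0.0299) and the mannose receptor Mrc1 did not pass (0.50). Since Stab1 and Lyve1 are also made by some endothelial cells, the cell of origin was not tested. Pf4 (adjusted p = 0.103) and Cbr2 (adjusted p = 0.517) missed the threshold with the library set term. Pf4 lost the call without sham_WT 2 (adjusted p = 0.0735) and Cbr2 without 5 of the single libraries (adjusted p up to 0.0957).

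Leukocyte transcripts were low. Of 18 neutrophil and monocyte markers 9 were expressed highly enough to test, 3 rose and 1 fell, and the list summed to 62.3, 37.5 and 51.3 CPM in IR_Matn3_ko and 39.2, 46.7 and 47.3 CPM in sham_WT, which overlap. The chitinase-like protein Chil3 had 11.8, 2.37 and 8.79 CPM in IR_Matn3_ko, against 0.575, 0.685 and 0.434 CPM in sham_WT (log2 fold change 3.76 ± 0.54, adjusted p = 0.00149). The decoy interleukin-1 receptor Il1r2 had 2.14, 1.59 and 2.45 CPM in IR_Matn3_ko, against 0.456, 0.167 and 0.51 CPM in sham_WT (log2 fold change 2.44 ± 0.42, adjusted p = 0.00338). The alarmins S100a8 and S100a9 did not pass (log2 fold change 1.72 and 1.17), and the neutrophil genes Mpo, Elane and Ly6g were below the expression filter. The number of higher calls was 6 without the library labelled IR_Matn3_ko 2 and 5 with no scaling factors, and the lower call was lost with the library set term, with which 2 members were higher, and without any single library of IR_Matn3_ko or sham_WT. The T cell genes Cd2 and Trac fell (-4.83 and -1.86), in the same libraries in which B cell markers were low. Cd2 (adjusted p = 0.972) and Trac (adjusted p = 0.224) missed the threshold with the library set term. Cd2 lost the call without 6 of the single libraries (adjusted p up to 0.0828).

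Secreted inflammatory signals showed the highest median of the lists of brain cells and programs. Of 21 tested cytokines and chemokines 19 rose and 1 fell, and the list median was 3.72. Il6, the cytokine that signals through gp130 and STAT3, had 7.34, 3.25 and 9.97 CPM in the IR_Matn3_ko libraries and no count in sham_WT, at least 132-fold higher against that floor of 3 counts (adjusted p = 0.00219). The monocyte attractant Ccl2 (chromosome 11, 82035571 to 82037453) had 13.1, 15.6 and 12.9 CPM in IR_Matn3_ko, against 0.0793, 0 and 0.0755 CPM in sham_WT (log2 fold change 8.03 ± 0.47, adjusted p = 1.49e-05). The gp130 ligand interleukin-11, Il11, had 26.4, 13.3 and 12.3 CPM in IR_Matn3_ko, against 0.515, 0 and 0.113 CPM in sham_WT, highest in IR_Matn3_ko 1 (log2 fold change 6.38 ± 0.87, adjusted p = 0.00112). The chemokine Ccl12 was highest in the library labelled IR_Matn3_ko 2, with 20.9, 40.3 and 18.5 CPM in IR_Matn3_ko, against 0.476, 0.5 and 0.283 CPM in sham_WT (log2 fold change 5.98 ± 0.36, adjusted p = 1.78e-05). The neuronal chemokine Cx3cl1 was the 1 member that fell (log2 fold change -0.98 ± 0.12, adjusted p = 0.000667), and Ccl5, a T cell product, did not pass (-0.87). With the library set term 14 members passed higher and 1 lower, Il6 among them (adjusted p = 0.000852).

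Receptors and feedback genes of the gp130 and STAT3 pathway rose as well. Cytokines of the interleukin-6 family bind receptor pairs with gp130, Janus kinases phosphorylate STAT3, and STAT3 induces Socs3, which shuts the receptor off. Of 14 measured members 9 rose and 0 fell (median 1.72). Osmr, the oncostatin M receptor, had 38.4, 80.3 and 65.5 CPM in IR_Matn3_ko, against 5.25, 7.35 and 5.00 CPM in sham_WT (log2 fold change 3.39 ± 0.27, adjusted p = 6.16e-05). Socs3 (chromosome 11, 117966079 to 117970047) had 37.1, 35.1 and 45.9 CPM in IR_Matn3_ko, against 3.11, 4.93 and 3.53 CPM in sham_WT (log2 fold change 3.35 ± 0.27, adjusted p = 6.71e-05). The transcription factor Cebpd had 24.2, 14.3 and 22 CPM in IR_Matn3_ko, against 1.84, 2.24 and 1.23 CPM in sham_WT (log2 fold change 3.51 ± 0.28, adjusted p = 6.16e-05). The fibrinogen-like protein Fgl2 had 5.83, 10.05 and 7.93 CPM in IR_Matn3_ko, against 1.11, 1.52 and 1.02 CPM in sham_WT (log2 fold change 2.70 ± 0.27, adjusted p = 0.000236). Stat3 itself rose by 1.61 ± 0.16 (adjusted p = 0.00023), while the receptor subunit Lifr and the kinase Jak2 did not pass (0.09 and 0.18).

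Promoter windows of these genes were read from RefSeq (GRCm38.p6), 250 bases before to 50 after each start in that table, where a gene can have more than 1 start and a start need not be the end of the gene in the deposited coordinates. The STAT3 letters TTCNNNGAA, searched on both strands, were found in 8.30% of 32851 windows of all genes. Among the 9 pathway genes that rose, 8 had a window and 2 of these held the letters, Socs3 and Fgl2. Of the 13 pan-reactive astrocyte genes Gfap and Steap4 held them. The Socs3 stretch around its match, shown because Socs3 is the feedback gene of the pathway, reads as follows, with the match in capitals.
Socs3 (chr11:117969462-117969570, minus strand): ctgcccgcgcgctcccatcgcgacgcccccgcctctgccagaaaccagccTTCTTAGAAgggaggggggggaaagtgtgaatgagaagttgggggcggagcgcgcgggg
The match begins 154 bases before the RefSeq start of this window, and the stretch lies inside the Socs3 coordinates given above. It is a description of letters, not of a bound site.

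Complement, the cascade that tags cells for phagocytosis, rose at most of its steps. Of 13 tested genes 12 rose and 1 fell (median 1.62), and with the library set term 7 were called higher and 0 lower. Besides C3ar1, the receptor C5ar1 had 19.2, 18.3 and 18.3 CPM in IR_Matn3_ko, against 0.238, 0.611 and 0.925 CPM in sham_WT (log2 fold change 4.96 ± 0.37, adjusted p = 5.13e-05). C4b had 77.0, 46.7 and 96.0 CPM in IR_Matn3_ko, against 3.55, 9.78 and 4.28 CPM in sham_WT (log2 fold change 3.64 ± 0.39, adjusted p = 0.000331), a value that is uncertain because a near-identical copy exists. The initiator chains C1qa, C1qb and C1qc rose by 1.62, 1.62 and 1.46. Cd55, which protects cells from complement, was the 1 member that fell (log2 fold change -0.68 ± 0.17, adjusted p = 0.0198). The sensor side of NF-kB signaling rose and its feedback genes rose in part: of 14 members 6 rose and 1 fell, with a median of 0.25. With the library set term 5 members were called higher and 0 lower. The receptor Tlr2 had 16.5, 18.1 and 22.6 CPM in IR_Matn3_ko, against 0.951, 1.63 and 1.15 CPM in sham_WT (log2 fold change 3.93 ± 0.28, adjusted p = 3.85e-05), and Tlr4, Myd88 and Ripk3 rose by 1.81, 1.82 and 1.82. The feedback genes Nfkbia and Nfkbiz rose by 0.58 ± 0.17 (adjusted p = 0.0342) and 0.72 ± 0.15 (adjusted p = 0.00888), and Tnfaip3 did not pass (-0.30). Rel, the lymphoid family member, fell (log2 fold change -1.47 ± 0.40, adjusted p = 0.026). Cd55 (adjusted p = 0.496) and Rel (adjusted p = 0.856) missed the threshold with the library set term. Cd55 lost the call without 4 of the single libraries (adjusted p up to 0.0708) and Rel without 6 of the single libraries (adjusted p up to 0.0769).

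Interferon-stimulated genes rose in part. Of 17 tested 7 rose and 0 fell (median 0.81). Ifitm3, a membrane protein that blocks viral entry, had 28.1, 24.6 and 32.1 CPM in IR_Matn3_ko, against 4.46, 5.30 and 3.79 CPM in sham_WT (log2 fold change 2.64 ± 0.16, adjusted p = 1.49e-05). Oasl2 had 16.8, 28.6 and 27.7 CPM in IR_Matn3_ko, against 7.07, 8.18 and 7.32 CPM in sham_WT (log2 fold change 1.69 ± 0.24, adjusted p = 0.00136). Bst2 had 9.31, 9.92 and 7.74 CPM in IR_Matn3_ko, against 2.73, 2.61 and 3.19 CPM in sham_WT (log2 fold change 1.66 ± 0.24, adjusted p = 0.0016). Ifit1 spread widely within IR_Matn3_ko, with 10.3, 29.0 and 19.2 CPM in IR_Matn3_ko, against 8.02, 7.5 and 6.44 CPM in sham_WT (log2 fold change 1.41 ± 0.42, adjusted p = 0.0365). The number of higher calls was 4 without IR_Matn3_ko 3, 4 without sham_WT 1, 4 without sham_WT 2 and 4 without sham_WT 3, and 4 with the library set term. Of 12 antigen presentation genes 1 rose and 1 fell (16.7%, against 22.5% of all tested genes), and these counts depended on the fit. Under the library set term 4 were called higher and 0 lower (median 0.72, against 0.03 without it), and with no scaling factors 4 were higher and 1 lower. Leaving out any 1 IR_WT library gave 4 lower calls, and 3 higher ones without IR_WT 1. Without IR_Matn3_ko 2 there were 2 higher and 0 lower, without sham_WT 2 there were 0 lower, and without any 1 of IR_Matn3_ko 1, IR_Matn3_ko 3, sham_WT 1 and sham_WT 3 no member was called. The immunoproteasome subunit Psmb8 rose (log2 fold change 0.72 ± 0.19, adjusted p = 0.0234). The class II gene H2-Eb1, which B cells carry, had 3.44, 4.25 and 3.83 CPM in IR_Matn3_ko, against 14.0, 20.9 and 21.9 CPM in sham_WT (log2 fold change -2.30 ± 0.71, adjusted p = 0.0427). The fit that adds the library set term put it at 0.69 instead. Its libraries followed the B cell markers given above, whose part in this value was not tested. Bst2 (adjusted p = 0.0553), Ifit1 (adjusted p = 0.195) and H2-Eb1 (adjusted p = 0.263) missed the threshold with the library set term. Ifit1 lost the call without 5 of the single libraries (adjusted p up to 0.119), Psmb8 without 4 of the single libraries (adjusted p up to 0.0822) and H2-Eb1 without 6 of the single libraries (adjusted p up to 0.108).

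Several stress programs rose. Heat shock proteins are chaperones induced by the transcription factor Hsf1 when proteins misfold. Of 15 measured heat shock genes 12 rose and 0 fell (median 1.27). Hspa1a, the inducible Hsp70, had 117, 541 and 250.4 CPM in IR_Matn3_ko, against 10.6, 10.4 and 13.6 CPM in sham_WT (log2 fold change 4.71 ± 0.66, adjusted p = 0.00126), and its near-identical copy Hspa1b rose by 4.87 ± 0.72 (adjusted p = 0.00172), so the split between them is uncertain. The library labelled IR_Matn3_ko 2 was the highest for both. The cochaperone Bag3 had 19.6, 24.4 and 22.6 CPM in IR_Matn3_ko, against 5.88, 6.93 and 6.98 CPM in sham_WT (log2 fold change 1.75 ± 0.17, adjusted p = 0.000222). The mitochondrial chaperonin pair Hspd1 and Hspe1 rose by 1.25 ± 0.28 (adjusted p = 0.0125) and 1.65 ± 0.26 (adjusted p = 0.00251). Hsf1 itself, the constitutive Hspa8 and the lens chaperone Cryab did not pass (-0.07, 0.39 and -0.16). Higher with the library set term were 4 members. Hspd1 (adjusted p = 0.175) and Hspe1 (adjusted p = 0.0711) missed the threshold with the library set term. Hspd1 lost the call without sham_WT 1 (adjusted p = 0.0505).

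Heme oxygenase, metallothioneins and NRF2 targets protect against heme, metals and oxidants. Of 18 measured members 11 rose and 0 fell (median 0.71), and the count was 11 whichever library was left out. Hmox1, which degrades heme (chromosome 8, 75093621 to 75100589), had 125, 96.3 and 158 CPM in IR_Matn3_ko, against 4.64, 7.00 and 6.36 CPM in sham_WT (log2 fold change 4.39 ± 0.23, adjusted p = 1.13e-05). The metallothioneins Mt2 and Mt1 bind zinc and copper. Mt2 had 129, 99.9 and 183 CPM in IR_Matn3_ko, against 30.4, 31.0 and 40.2 CPM in sham_WT (log2 fold change 2.02 ± 0.24, adjusted p = 0.00063). Mt1 had 194, 156 and 230.0 CPM in IR_Matn3_ko, against 63.4, 63.2 and 79.2 CPM in sham_WT (log2 fold change 1.49 ± 0.18, adjusted p = 0.000617). The cystine transporter Slc7a11 had 64.5, 74.1 and 110.3 CPM in IR_Matn3_ko, against 26.8, 27.9 and 29.1 CPM in sham_WT (log2 fold change 1.57 ± 0.17, adjusted p = 0.000374), and thioredoxin reductase, Txnrd1, rose by 1.48 ± 0.14 (adjusted p = 0.000176). The catalytic glutathione synthesis gene Gclc, Nqo1 and the brain metallothionein Mt3 did not pass (0.18, -0.01 and 0.15). IR_Matn3_ko 3 was the highest library for Hmox1, Mt1, Mt2 and Slc7a11.

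The promoter windows of these stress genes were searched for the letters of their known regulators. The heat shock element, GAANNTTC followed by NNGAA, was found in 0.603% of all windows, and among the 10 heat shock genes that rose and had a window it was found in 3, Hspd1, Hspe1 and Hsph1. Hspd1 and Hspe1 lie head to head and share their match. The metal response core TGCGCNC was in 15.4% of all windows and in 4 of the 9 metallothionein and antioxidant genes that rose and had a window, Mt1, Mt2, Gclm and Srxn1. The antioxidant response letters TGACNNNGC were in 12.4% of all windows and in 5 of these 9 genes, among them Txnrd1. One stretch for each motif is shown, 50 bases to each side of the match or up to the window's RefSeq start, with the match in capitals (2 overlapping matches in Hspe1).
Hspe1 (chr1:55088009-55088126, plus strand): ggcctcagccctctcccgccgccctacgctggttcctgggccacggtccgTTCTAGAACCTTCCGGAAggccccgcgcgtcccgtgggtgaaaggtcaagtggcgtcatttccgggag
Mt2 (chr8:94172440-94172546, plus strand): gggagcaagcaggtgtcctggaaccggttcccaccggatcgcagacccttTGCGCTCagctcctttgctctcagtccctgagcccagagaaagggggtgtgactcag
Txnrd1 (chr10:82859064-82859172, plus strand): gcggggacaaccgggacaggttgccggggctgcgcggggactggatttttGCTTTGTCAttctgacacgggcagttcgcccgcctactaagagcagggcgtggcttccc
In Hspe1 the first match begins 89 bases before the RefSeq start of its window, in Mt2 128 and in Txnrd1 92, and the Txnrd1 stretch lies inside the gene as the deposited table bounds it.

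Genes of the unfolded protein and integrated stress response rose by smaller amounts. Of 19 tested 11 rose and 0 fell (median 0.58), and 16 passed with no scaling factors. The stress cytokine Gdf15 had 2.68, 10.6 and 7.09 CPM in the IR_Matn3_ko libraries and no count in sham_WT, at least 132-fold higher against the same floor (adjusted p = 0.000426). Gdf15 also passed with the library set term (adjusted p = 0.00621). Sestrin-2, Sesn2, had 28.6, 89.3 and 45 CPM in IR_Matn3_ko, against 12.1, 14.1 and 13.3 CPM in sham_WT (log2 fold change 2.04 ± 0.37, adjusted p = 0.00463). The phosphatase subunit Ppp1r15a, which ends the translational block, had 29.2, 42.4 and 33.2 CPM in IR_Matn3_ko, against 16.4, 16.9 and 12 CPM in sham_WT (log2 fold change 1.21 ± 0.19, adjusted p = 0.00256), and Sdf2l1 rose by 1.04 ± 0.27 (adjusted p = 0.0215). For Gdf15, Sesn2 and Ppp1r15a the library labelled IR_Matn3_ko 2 was the highest. The central factor Atf4 did not pass (0.07). The number of higher calls was 7 without sham_WT 1 and 7 without sham_WT 2, and 2 with the library set term. Sesn2 (adjusted p = 0.0607) and Sdf2l1 (adjusted p = 0.631) missed the threshold with the library set term. Sdf2l1 lost the call without 4 of the single libraries (adjusted p up to 0.0813).

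Targets of p53 and apoptosis genes moved similarly, with 12 of 17 higher and 0 lower (median 0.79). The cell cycle inhibitor p21, Cdkn1a (chromosome 17, 29090976 to 29100727), had 85.9, 171 and 107 CPM in IR_Matn3_ko, against 12.5, 20.4 and 24 CPM in sham_WT (log2 fold change 2.68 ± 0.32, adjusted p = 0.000605). The death receptors Tnfrsf10b and Fas rose by 2.05 ± 0.36 (adjusted p = 0.00369) and 1.39 ± 0.21 (adjusted p = 0.00173). The BH3-only gene Pmaip1 had 9.17, 28.5 and 12.3 CPM in IR_Matn3_ko, against 5.25, 4.0 and 3.28 CPM in sham_WT (log2 fold change 2.00 ± 0.42, adjusted p = 0.00928). Cdkn1a and Pmaip1 were highest in the library labelled IR_Matn3_ko 2, and no IR_Matn3_ko library overlapped sham_WT. The survival gene Bcl2 did not pass (-0.37). The count was 7 without sham_WT 1, and 4 with the library set term. Fas (adjusted p = 0.0642) and Pmaip1 (adjusted p = 0.135) missed the threshold with the library set term.

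Injury-induced and activity-induced transcription factors moved apart. AP-1 factors are dimers of Fos, Jun and Atf proteins that respond within hours to injury. Of 14 tested injury factors 8 rose and 1 fell (median 0.82). Atf3 (chromosome 1, 191170296 to 191218039) had 25.6, 33.7 and 25.2 CPM in IR_Matn3_ko, against 1.15, 1.09 and 1.00 CPM in sham_WT (log2 fold change 4.70 ± 0.29, adjusted p = 1.78e-05). Fosl1 had 2.91, 3.91 and 3.42 CPM in IR_Matn3_ko, against 0.178, 0.407 and 0.189 CPM in sham_WT (log2 fold change 3.71 ± 0.43, adjusted p = 0.000525). Maff had 10.8, 18.5 and 12.3 CPM in IR_Matn3_ko, against 1.25, 1.37 and 1.49 CPM in sham_WT (log2 fold change 3.34 ± 0.26, adjusted p = 6.16e-05). Fos itself did not pass (0.91). Egr1 was the 1 member that fell, with 114, 118 and 103 CPM in IR_Matn3_ko, against 188, 439 and 215 CPM in sham_WT (log2 fold change -1.33 ± 0.27, adjusted p = 0.00818). Of 13 activity-dependent neuronal genes 1 rose and 6 fell (median -0.81). Nr4a1 had 27.7, 40.2 and 32.9 CPM in IR_Matn3_ko, against 76.9, 142 and 55.9 CPM in sham_WT (log2 fold change -1.45 ± 0.33, adjusted p = 0.0134). Egr3 had 81.9, 58.7 and 90.2 CPM in IR_Matn3_ko, against 119, 185 and 204 CPM in sham_WT (log2 fold change -1.14 ± 0.22, adjusted p = 0.00599). Egr4 fell too (log2 fold change -1.35 ± 0.33, adjusted p = 0.0176). The sham_WT libraries spread widely for Egr1 and Nr4a1, with sham_WT 2 the highest. The synaptic pentraxin Nptx2 rose instead, with 54.7, 139 and 70.8 CPM in IR_Matn3_ko, against 27.4, 26.8 and 30.8 CPM in sham_WT (log2 fold change 1.64 ± 0.28, adjusted p = 0.0036), and Arc and Bdnf did not pass (-0.99 and -0.20). The number of injury factors called higher was 5 without IR_Matn3_ko 3 and 5 without sham_WT 1, and of activity-dependent genes called lower 3 without IR_Matn3_ko 3. Injury factors gave 4 higher and 0 lower calls with the library set term (median 0.78), and activity-dependent genes 0 higher and 2 lower (median -0.85). Egr1 (adjusted p = 0.129), Nr4a1 (adjusted p = 0.0527), Egr3 (adjusted p = 0.0625) and Nptx2 (adjusted p = 0.059) missed the threshold with the library set term. Egr4 lost the call without IR_Matn3_ko 1, IR_Matn3_ko 3 or sham_WT 2 (adjusted p up to 0.0671).

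**Figure D3:**
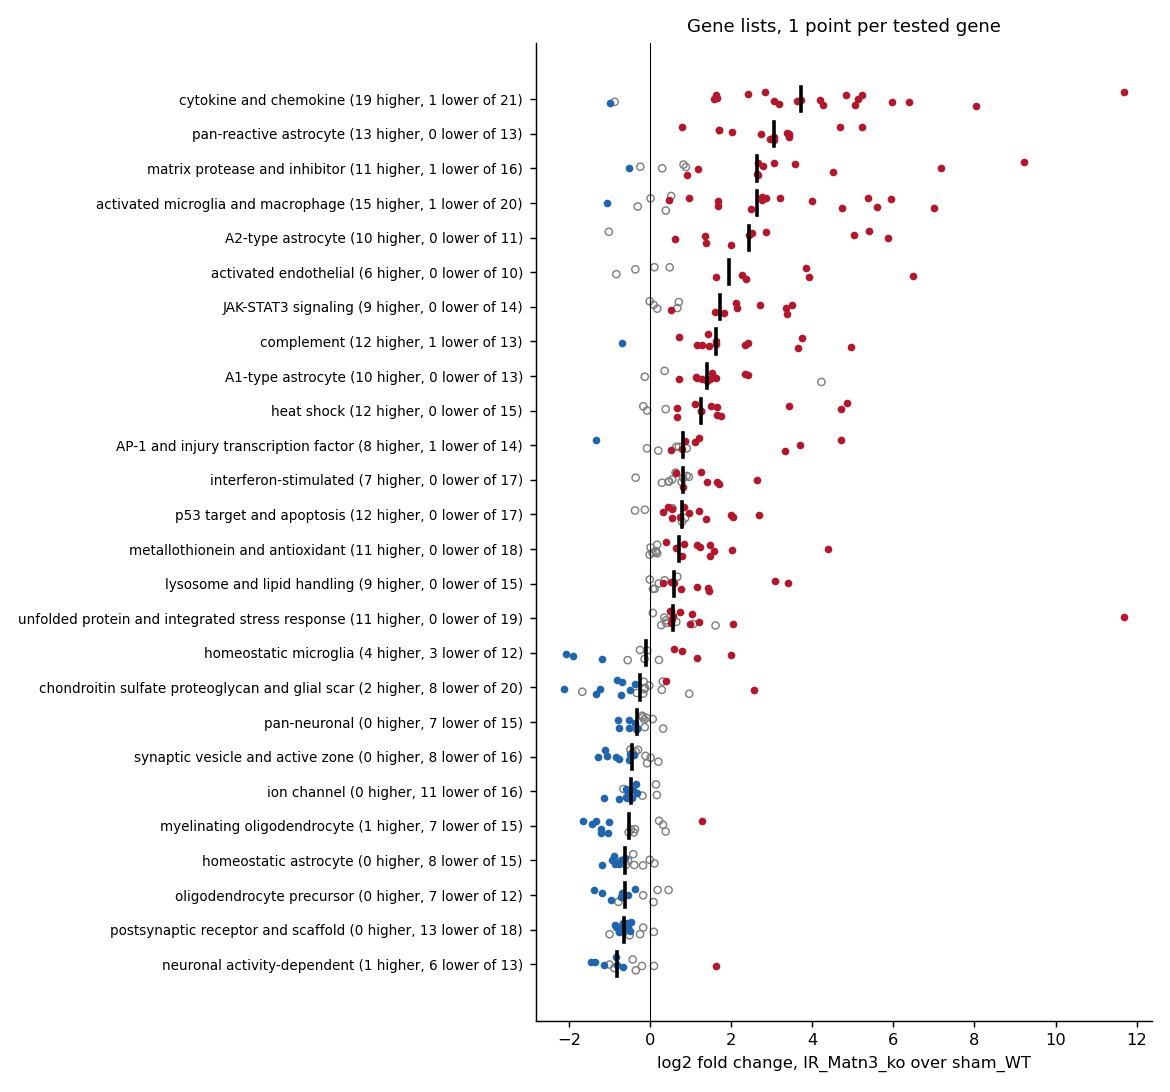
Log2 fold change of IR_Matn3_ko over sham_WT for each tested gene of 26 lists, ordered from the highest to the lowest median, with called genes filled (red higher, blue lower), other genes open and the list median as a black bar. The fitted values of Il6 and Gdf15 at the far right have no count in sham_WT and are no measured sizes. Inflammatory, matrix protease and reactive astrocyte lists lie to the right, and neuronal, myelin and resting astrocyte lists to the left by smaller amounts.

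In vessel genes, activation markers rose and barrier genes split. Of 10 tested markers of activated endothelium 6 rose and 0 fell (median 1.95). P-selectin, Selp, which slows leukocytes on the vessel wall, had 5.96, 4.91 and 4.87 CPM in IR_Matn3_ko, against 0, 0.0926 and 0.0755 CPM in sham_WT (log2 fold change 6.48 ± 0.59, adjusted p = 0.000134). E-selectin, Sele, had 2.91, 4.54 and 5.21 CPM in IR_Matn3_ko, against 0.238, 0.296 and 0.34 CPM in sham_WT (log2 fold change 3.85 ± 0.43, adjusted p = 0.000409). The angiopoietin Angpt2 had 15.4, 2.46 and 12.6 CPM in IR_Matn3_ko, against 0.733, 0.889 and 0.396 CPM in sham_WT, lowest in the library labelled IR_Matn3_ko 2 (log2 fold change 3.91 ± 0.79, adjusted p = 0.00761), and von Willebrand factor, Vwf, rose by 2.37 ± 0.20 (adjusted p = 9.28e-05). Of 14 endothelial and barrier genes 4 rose and 3 fell, with 2 higher without sham_WT 1. The junction cadherin Cdh5 had 33.4, 20.6 and 40.8 CPM in IR_Matn3_ko, against 8.98, 13.1 and 11.5 CPM in sham_WT (log2 fold change 1.49 ± 0.26, adjusted p = 0.00369) and Esam rose by 0.99 ± 0.19 (adjusted p = 0.0068). The efflux pump Abcb1a had 27.3, 21.1 and 21.6 CPM in IR_Matn3_ko, against 49.3, 55.6 and 42.7 CPM in sham_WT (log2 fold change -1.08 ± 0.14, adjusted p = 0.000803). The thyroid hormone carrier Slco1c1 had 35.2, 26.1 and 26.4 CPM in IR_Matn3_ko, against 65.8, 63.7 and 58.3 CPM in sham_WT (log2 fold change -1.10 ± 0.17, adjusted p = 0.00212). The tight junction genes Cldn5 and Ocln did not pass (-0.12 and -0.08).

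Of 12 mural cell genes 2 were higher and 4 lower. The lower count was 2 without IR_Matn3_ko 2, IR_Matn3_ko 3, sham_WT 1 or sham_WT 2 and 1 without sham_WT 3. The higher count was 1 without IR_Matn3_ko 1, sham_WT 1 or sham_WT 2, 4 with no scaling factors and 0 with the library set term. Rgs5, a pericyte regulator of G proteins, had 68, 57.4 and 70.9 CPM in IR_Matn3_ko, against 127, 137 and 112 CPM in sham_WT (log2 fold change -0.94 ± 0.10, adjusted p = 0.000336), and the myosin light chain Myl9 fell (log2 fold change -0.89 ± 0.23, adjusted p = 0.023). The potassium channel Kcnj8 rose by 0.89 ± 0.22 (adjusted p = 0.0176). Anpep, an aminopeptidase of pericytes and of the intestinal brush border, had 64.0, 37.8 and 19.7 CPM in IR_Matn3_ko, 2.84, 55.4 and 53.9 CPM in IR_WT and 2.04, 2.26 and 2.43 CPM in sham_WT (log2 fold change 4.17 ± 0.91 against sham_WT, adjusted p = 0.0109), high and low in the same libraries as the intestinal markers, and with the library set term the log2 fold change was -0.10. Kcnj8 (adjusted p = 0.423) and Anpep (adjusted p = 0.953) missed the threshold with the library set term. Anpep is itself among the small intestine markers whose sum defines the set. Myl9 lost the call without 5 of the single libraries (adjusted p up to 0.07) and Kcnj8 without IR_Matn3_ko 1, sham_WT 1 or sham_WT 2 (adjusted p up to 0.0688).

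Proteases that remodel the extracellular matrix rose strongly. Of 16 tested proteases and inhibitors 11 rose and 1 fell (median 2.65). Stromelysin-1, Mmp3 (chromosome 9, 7445822 to 7455975), had 11.4, 11.1 and 26.9 CPM in IR_Matn3_ko, against 0, 0 and 0.0755 CPM in sham_WT (log2 fold change 9.23 ± 0.92, adjusted p = 0.00023). The macrophage elastase Mmp12 (chromosome 9, 7344381 to 7369499) had 13, 11.3 and 12.9 CPM in IR_Matn3_ko, against 0.258, 0 and 0 CPM in sham_WT (log2 fold change 7.18 ± 0.87, adjusted p = 0.00063). For both, counts in sham_WT came from 1 library, so the size of the fold change is uncertain although the groups lie far apart. The proteoglycan-cleaving protease Adamts9 had 33.9, 24.6 and 43.8 CPM in IR_Matn3_ko, against 0.793, 2.20 and 1.47 CPM in sham_WT (log2 fold change 4.51 ± 0.45, adjusted p = 0.000229). The inhibitor Timp1 rose by 3.06 ± 0.41 (adjusted p = 0.000956), and Timp3 was the 1 member that fell (log2 fold change -0.52 ± 0.16, adjusted p = 0.0479). Higher with the library set term were 9 members. Timp3 (adjusted p = 0.73) missed the threshold with the library set term. Timp3 lost the call without 5 of the single libraries (adjusted p up to 0.139).

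The AP-1 letters TGANTCA were in 7.81% of all promoter windows. Of the 8 matrix genes that rose and had a window 3 held them, Mmp3, Mmp12 and Plaur. Of the 7 injury transcription factors that rose and had a window 0 did. The Mmp3 and Mmp12 stretches are shown because both genes were near 0 in sham_WT and lie close to each other on chromosome 9, with the match in capitals.
Mmp3 (chr9:7445726-7445821, plus strand): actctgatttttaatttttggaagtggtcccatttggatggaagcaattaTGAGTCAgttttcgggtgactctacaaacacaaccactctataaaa
Mmp12 (chr9:7347280-7347373, plus strand): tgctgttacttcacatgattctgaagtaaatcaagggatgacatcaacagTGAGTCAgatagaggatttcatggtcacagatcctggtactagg
The match begins 46 bases before the RefSeq start of the Mmp3 window and 44 before that of the Mmp12 window, with the same letters in both. The Mmp12 window is that of a start inside the gene as given above.

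Chondroitin sulfate proteoglycans and their partners, which form perineuronal nets and the glial scar, mostly lay lower or did not pass. Of 20 tested 2 rose and 8 fell (median -0.24). Brevican, Bcan (chromosome 3, 87987531 to 88000230), had 86.0, 65.7 and 75.3 CPM in IR_Matn3_ko, against 165, 184 and 187 CPM in sham_WT (log2 fold change -1.24 ± 0.14, adjusted p = 0.000426). The link protein Hapln1 had 10.2, 12.7 and 12.7 CPM in IR_Matn3_ko, against 25.2, 31.2 and 32.4 CPM in sham_WT (log2 fold change -1.32 ± 0.13, adjusted p = 0.000229). The sulfotransferase Chst3 had 1.70, 2.40 and 2.34 CPM in IR_Matn3_ko, against 8.30, 10.8 and 9.08 CPM in sham_WT (log2 fold change -2.13 ± 0.34, adjusted p = 0.00259). Tenascin-C, Tnc, the glycoprotein of injured tissue, rose instead, with 39.3, 52.7 and 48.1 CPM in IR_Matn3_ko, against 3.25, 11.9 and 8.61 CPM in sham_WT (log2 fold change 2.56 ± 0.59, adjusted p = 0.0136). Neurocan, Ncan, and versican, Vcan, did not pass (-0.12 and 0.32). Aggrecan, Acan, had 2.46, 9.58 and 3.99 CPM in IR_Matn3_ko, against 5.86, 24.2 and 20.9 CPM in sham_WT and did not pass (log2 fold change -1.67 ± 0.72, adjusted p = 0.128). It is also a cartilage gene, and sham_WT 2 and 3 held the cartilage transcripts given above. The set term gave 1 higher and 5 lower calls, and the higher count was also 1 without IR_Matn3_ko 2, IR_Matn3_ko 3 or sham_WT 1. Chst3 (adjusted p = 0.185) missed the threshold with the library set term.

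Genes of the fibrotic scar, made by fibroblasts and pericytes, gave 4 higher and 1 lower of 17, with a median of 0.02 and 1.16 with the library set term. The lower calls were 2 without IR_Matn3_ko 1 and 3 without sham_WT 1. The matrix adaptor Tgfbi had 48.9, 55.5 and 51.2 CPM in IR_Matn3_ko, against 2.48, 4.46 and 2.72 CPM in sham_WT (log2 fold change 4.01 ± 0.27, adjusted p = 2.51e-05). Periostin, Postn, had 10.4, 12.1 and 10.9 CPM in IR_Matn3_ko, against 1.88, 2.06 and 2.30 CPM in sham_WT (log2 fold change 2.42 ± 0.25, adjusted p = 0.000265). Decorin, Dcn, had 40.5, 30.4 and 43.9 CPM in IR_Matn3_ko, against 5.94, 8.55 and 11.6 CPM in sham_WT (log2 fold change 2.14 ± 0.26, adjusted p = 0.000655). The collagen chain Col5a1 fell, with 35.8, 36.7 and 40.4 CPM in IR_Matn3_ko, against 93.4, 88.2 and 91.2 CPM in sham_WT (log2 fold change -1.27 ± 0.13, adjusted p = 0.000229). The main fibrillar collagens did not pass, as Col1a1 had 6.02, 5.21 and 7.05 CPM in IR_Matn3_ko, against 1.96, 39.3 and 35.8 CPM in sham_WT, so sham_WT 1 lay below the IR_Matn3_ko libraries and sham_WT 2 and 3 far above them (log2 fold change -2.08 ± 0.89, adjusted p = 0.124). Meningeal markers summed to 90.3, 76.9 and 89.8 CPM in IR_Matn3_ko and 34.6, 133 and 134 CPM in sham_WT, and their part in the collagen values was not tested. Of the other matrilins, Matn4 had 4.53, 2.70 and 3.78 CPM in IR_Matn3_ko, against 6.40, 7.43 and 7.46 CPM in sham_WT (log2 fold change -0.95 ± 0.22, adjusted p = 0.0151), and the cartilage matrilin Matn1 and Matn2 did not pass (-2.44 and 0.86). Matn4 (adjusted p = 0.12) missed the threshold with the library set term. Matn4 lost the call without sham_WT 2 (adjusted p = 0.0501).

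Oligodendrocyte genes lay mostly lower. Of 15 measured genes of myelinating cells 7 fell and 1 rose (median -0.52), and with the library set term 3 were called lower (median -0.20). Aspa, which breaks down N-acetylaspartate, had 5.89, 4.95 and 4.87 CPM in IR_Matn3_ko, against 15.6, 23.1 and 11 CPM in sham_WT (log2 fold change -1.66 ± 0.24, adjusted p = 0.00161). The galactolipid enzyme Ugt8a had 15.2, 19.9 and 14.6 CPM in IR_Matn3_ko, against 41.9, 52.0 and 30.7 CPM in sham_WT (log2 fold change -1.32 ± 0.23, adjusted p = 0.00407). Transferrin, Trf, the iron carrier that oligodendrocytes also make, was the 1 member that rose, with 367, 421 and 512 CPM in IR_Matn3_ko, against 159, 234 and 137 CPM in sham_WT (log2 fold change 1.3 ± 0.26, adjusted p = 0.00688). Of 12 precursor genes 7 fell and 0 rose (median -0.62). Gpr17, a receptor of cells about to differentiate, had 17.5, 13.6 and 13.6 CPM in IR_Matn3_ko, 14.0, 41.6 and 34.6 CPM in IR_WT and 29.7, 36.7 and 34.6 CPM in sham_WT (log2 fold change -1.18 ± 0.32 against sham_WT, adjusted p = 0.0267). The phosphodiesterase Enpp6 fell (log2 fold change -1.37 ± 0.25, adjusted p = 0.00488), as did the proteoglycan Cspg5 (log2 fold change -0.71 ± 0.15, adjusted p = 0.00858). The precursor receptor Pdgfra and the lineage factors Olig2 and Sox10 did not pass (-0.17, 0.09 and 0.19). The number of precursor genes called lower was 4 without sham_WT 2. Aspa (adjusted p = 0.0573), Ugt8a (adjusted p = 0.124) and Enpp6 (adjusted p = 0.156) missed the threshold with the library set term. Gpr17 lost the call without 5 of the single libraries (adjusted p up to 0.0823).

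Neuronal genes lay lower by small amounts. Of 15 pan-neuronal genes 7 fell and 0 rose (median -0.32), with 3 called lower under no scaling factors, 2 with the library set term, and 4 without IR_Matn3_ko 3, 2 without sham_WT 1, 4 without sham_WT 2 and 4 without sham_WT 3. The neurofilament Nefl had 337, 244 and 302 CPM in IR_Matn3_ko, against 527, 489 and 501 CPM in sham_WT (log2 fold change -0.78 ± 0.11, adjusted p = 0.00139). The calcium sensor Syt1 had 1206, 1127 and 1297 CPM in IR_Matn3_ko, against 1766, 1676 and 1746 CPM in sham_WT (log2 fold change -0.52 ± 0.10, adjusted p = 0.00576). Snap25, of the vesicle fusion complex, had 2432, 1413 and 2095 CPM in IR_Matn3_ko, against 3472, 3197 and 3334 CPM in sham_WT, lowest in the library labelled IR_Matn3_ko 2 (log2 fold change -0.75 ± 0.18, adjusted p = 0.0181). The axonal genes Stmn2 and Gap43 did not pass (-0.19 and -0.13). Among genes of excitatory layers 5 of 15 fell and 1 rose, and the number called lower was 2 without IR_Matn3_ko 3, 3 without sham_WT 1, 2 without sham_WT 2, 3 without sham_WT 3, 3 with no scaling factors and 1 with the library set term. The higher call was lost with that term and without 6 of the single libraries. Lamp5, of superficial layers, had 112, 57.2 and 105 CPM in IR_Matn3_ko, against 294, 270.3 and 303 CPM in sham_WT (log2 fold change -1.66 ± 0.22, adjusted p = 0.000913). Neurogranin, Nrgn, had 771, 409 and 589.9 CPM in IR_Matn3_ko, against 1059, 1122 and 1152 CPM in sham_WT (log2 fold change -0.91 ± 0.22, adjusted p = 0.0174). Of 18 interneuron and neuropeptide genes 5 fell and 1 rose (33.3%, against 22.5% of all tested genes), and with no scaling factors 3 fell. Cerebellin-4, Cbln4, had 3.42, 9.41 and 5.20 CPM in IR_Matn3_ko, against 32.3, 28.0 and 29.1 CPM in sham_WT (log2 fold change -2.31 ± 0.30, adjusted p = 0.000933). Cortistatin, Cort, fell (log2 fold change -1.58 ± 0.30, adjusted p = 0.00612). Enkephalin, Penk, had 10.04, 11.7 and 7.86 CPM in IR_Matn3_ko, against 17.6, 35.9 and 32.4 CPM in sham_WT (log2 fold change -1.53 ± 0.33, adjusted p = 0.00987), while the serotonin receptor Htr3a rose (log2 fold change 1.16 ± 0.24, adjusted p = 0.00916). The interneuron genes Gad1, Pvalb and Sst did not pass (-0.27, -0.68 and -0.26). Nefl (adjusted p = 0.0615), Snap25 (adjusted p = 0.0815), Nrgn (adjusted p = 0.0625), Cort (adjusted p = 0.154), Penk (adjusted p = 0.119) and Htr3a (adjusted p = 0.175) missed the threshold with the library set term. Snap25 lost the call without sham_WT 1 or sham_WT 3 (adjusted p up to 0.0606) and Nrgn without IR_Matn3_ko 3, sham_WT 2 or sham_WT 3 (adjusted p up to 0.0522).

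Genes of synapses and ion channels fell, and 0 members of these 3 lists rose. Of 16 release genes 8 fell (median -0.45), of 18 postsynaptic genes 13 (median -0.64) and of 16 channel genes 11 (median -0.46). The vesicle priming factor Unc13a (chromosome 8, 71624417 to 71671757) had 209, 235 and 190.3 CPM in IR_Matn3_ko, against 513, 527 and 502 CPM in sham_WT (log2 fold change -1.28 ± 0.11, adjusted p = 7.79e-05). Syntaxin-1A, Stx1a, had 163, 169.7 and 147 CPM in IR_Matn3_ko, against 353, 319 and 361 CPM in sham_WT (log2 fold change -1.10 ± 0.09, adjusted p = 7.79e-05). The active zone protein Rims1 had 167, 184 and 179 CPM in IR_Matn3_ko, against 389, 387 and 327 CPM in sham_WT (log2 fold change -1.06 ± 0.09, adjusted p = 7.51e-05). The GABA receptor subunit Gabrb2 had 43.6, 55.5 and 64.9 CPM in IR_Matn3_ko, against 104, 94.6 and 80.4 CPM in sham_WT (log2 fold change -0.77 ± 0.15, adjusted p = 0.00641). The scaffolds Shank1 and Homer1 fell (-0.77 and -0.84), while the glutamate receptor subunits Gria1 and Grin1 did not pass (0.10 and -0.50). The sodium channel Scn1a, mainly of inhibitory neurons, had 128, 104 and 165 CPM in IR_Matn3_ko, against 342, 286 and 247 CPM in sham_WT (log2 fold change -1.14 ± 0.18, adjusted p = 0.00222). The pacemaker channel Hcn2 had 80.9, 58.3 and 78.6 CPM in IR_Matn3_ko, against 116, 136 and 115 CPM in sham_WT (log2 fold change -0.75 ± 0.12, adjusted p = 0.00293). With no scaling factors 7, 11 and 6 members of the 3 lists fell, and with the library set term 6, 5 and 0. Without sham_WT 1 the channel count was 7. Gabrb2 (adjusted p = 0.198), Homer1 (adjusted p = 0.177), Scn1a (adjusted p = 0.148) and Hcn2 (adjusted p = 0.0685) missed the threshold with the library set term.

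**Figure D4:**
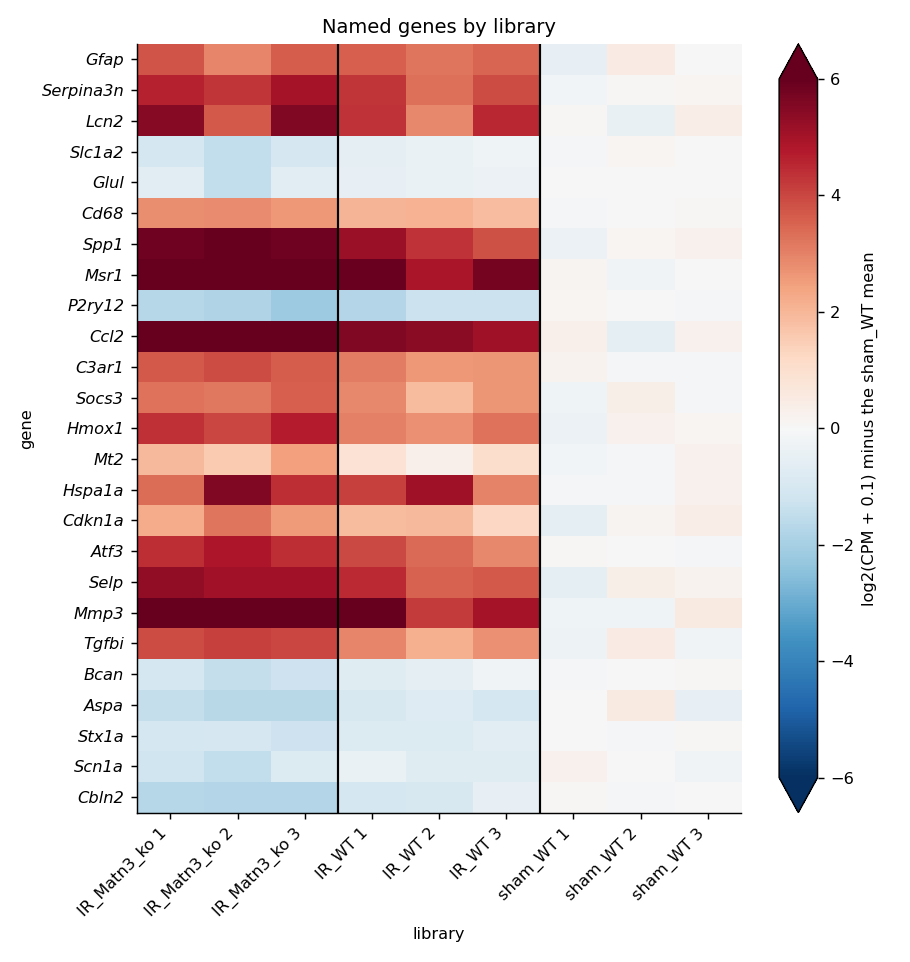
Colour map of log2(CPM + 0.1) minus the sham_WT mean for 25 named genes (down the page) in the 9 libraries, with IR_Matn3_ko at the left, IR_WT in the middle and sham_WT at the right, cut off at 6 in both directions. Inflammatory, stress and matrix protease genes are red in all 6 ischemic libraries, apart from Mt2 in IR_WT 2, and Slc1a2, P2ry12, Bcan, Aspa and the synaptic genes are pale blue in IR_Matn3_ko.

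Among metabolic genes, those of lysosomes and lipid droplets rose and those of hypoxia moved in both directions. Of 15 lysosome and lipid genes 9 rose and 0 fell (median 0.60). Perilipin-2, Plin2, which coats lipid droplets (chromosome 4, 86648386 to 86670060), had 56.7, 60.8 and 59.7 CPM in IR_Matn3_ko, against 6.10, 4.70 and 5.89 CPM in sham_WT (log2 fold change 3.41 ± 0.20, adjusted p = 1.49e-05). The fatty acid receptor Cd36 had 11, 8.28 and 18.5 CPM in IR_Matn3_ko, against 1.23, 1.87 and 1.38 CPM in sham_WT (log2 fold change 3.08 ± 0.37, adjusted p = 0.000592), and the cathepsins Ctsz and Ctsl rose by 1.46 ± 0.12 (adjusted p = 7.79e-05) and 1.44 ± 0.13 (adjusted p = 0.000153). Of 14 hypoxia and glycolysis genes 2 rose and 2 fell (28.6%, against 22.5% of all tested genes, median 0.00). With the library set term 0 were called higher and 1 lower. The vascular growth factor Vegfa fell, with 64.8, 56.9 and 60.6 CPM in IR_Matn3_ko, against 96.9, 112 and 87.1 CPM in sham_WT (log2 fold change -0.70 ± 0.12, adjusted p = 0.00389), and hexokinase 2, Hk2, rose (log2 fold change 1.10 ± 0.22, adjusted p = 0.0075). Of 14 cholesterol synthesis genes 2 rose and 1 fell (21.4%), near the 22.5% of all tested genes. None was called with the library set term, with no scaling factors 5 were higher and 0 lower, and with 1 library left out between 0 and 5 were called (5 higher without IR_Matn3_ko 2). Of 15 cell cycle genes 8 could be tested and 3 rose (37.5%, against 22.5% of all tested genes). These were the replication genes Mcm2, Mcm5 and Pcna (0.88, 0.71 and 0.58), while Mki67 did not pass (-1.14). Without sham_WT 1 the number of higher cell cycle calls was 1. Of 13 mitochondrially encoded genes 3 fell and 0 rose (23.1%, near the 22.5% of all tested genes, median -0.40). With no scaling factors and with the library set term 0 were called, the median was 0.01 with that term, and their count lay between 0 and 8 with 1 library left out. Hk2 (adjusted p = 0.15) and Pcna (adjusted p = 0.0559) missed the threshold with the library set term. Mcm2 lost the call without sham_WT 1 (adjusted p = 0.0533) and Mcm5 without 5 of the single libraries (adjusted p up to 0.111).

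Genes that flank a targeted locus can differ between mouse lines, so the position of called genes was counted. The tested neighbours of Matn3 on chromosome 12, Laptm4a and Wdr35, did not pass: Laptm4a had 189, 167 and 199 CPM in IR_Matn3_ko, against 181, 169 and 182 CPM in sham_WT (log2 fold change 0.06 ± 0.08, adjusted p = 0.622). Wdr35 had 40.4, 45.6 and 44.5 CPM in IR_Matn3_ko, against 42.2, 38.9 and 44.1 CPM in sham_WT (log2 fold change 0.06 ± 0.11, adjusted p = 0.736). Within 5 Mb of Matn3, 7 of 45 tested genes were called (15.6%), against 22.5% over all genes. By chromosome the share lay between 18.4% on the X chromosome and 25.6% on chromosome 3, leaving out the mitochondrial genome and the Y chromosome, which hold few tested genes. Among windows of 5 Mb with at least 20 tested genes, the highest share was on chromosome 8 at 20 to 25 Mb, with 28 of 59 genes called and 25 of them higher. That window holds the alpha-defensin genes. On chromosome 6 at 65 to 70 Mb, the immunoglobulin kappa locus, 19 of 42 were called and all were lower. Neither window had a called gene with the library set term. A window on chromosome 4 at 40 to 45 Mb is described because a block there was known from earlier work. Some windows not described here had larger shares of called genes. In the chromosome 4 window 47 of 112 were called, 12 higher and 35 lower, and 14 were called with the library set term. Among the lower genes were the B cell factor Pax5 with 0.128, 0.452 and 0.235 CPM in IR_Matn3_ko, against 10.9, 16.4 and 12.7 CPM in sham_WT (log2 fold change -5.59 ± 1.37, adjusted p = 0.0178) and Fam205a3, Fam205a4 and Ccl21d (-1.67, -1.63 and -3.99). The last 3 have near-identical copies in the same window, between which reads may be split, so their values are uncertain. Pax5 (adjusted p = 0.794) and Ccl21d (adjusted p = 0.234) missed the threshold with the library set term. Pax5 lost the call without IR_Matn3_ko 1 or IR_Matn3_ko 3 (adjusted p up to 0.0631).

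**Figure D5:**
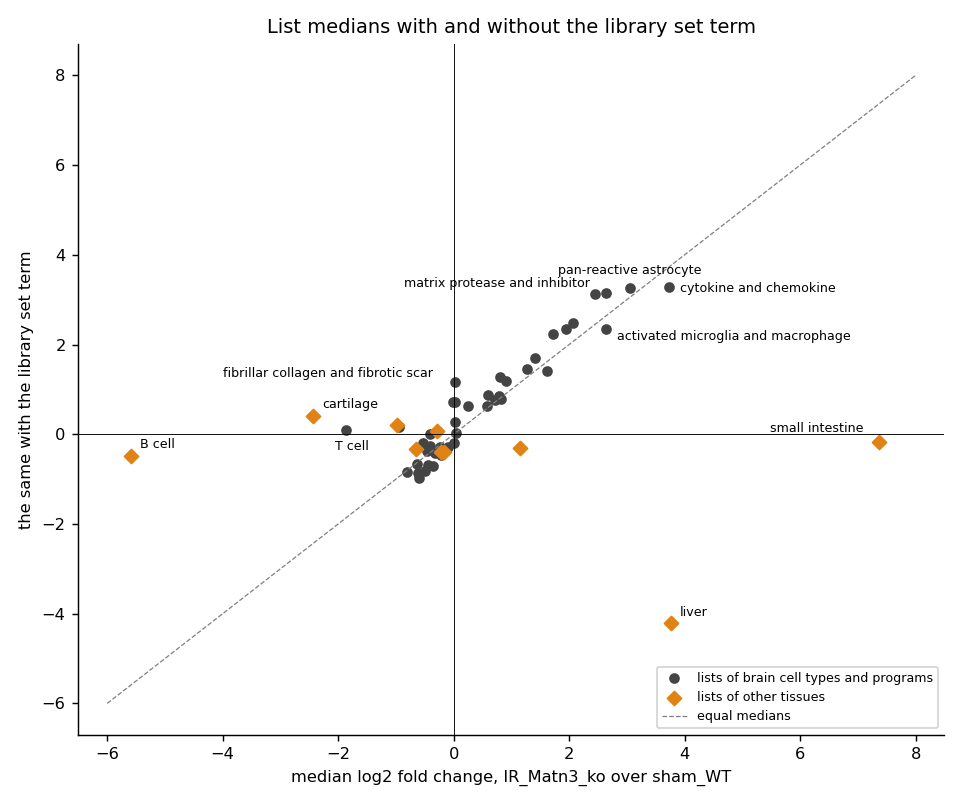
Median log2 fold change of each of 52 lists without (across) and with (up) the library set term, with lists of other tissues as orange diamonds and equal medians as a dashed line. The brain cell and program lists lie near the line, with the fibrotic scar and T cell lists among the exceptions. The liver list (2 tested genes) and the B cell and cartilage lists lie far from it, and the small intestine median is 7.36 without and -0.18 with the term. The term is defined by the small intestine list, so the shift of that list is built in. Of the 15 tested genes in that list several have no count in sham_WT, so their median is a fitted value, and it is 5.60 with such genes at their lower bound.

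Because genotype and surgery both differ above, the wild-type ischemic libraries are set beside the knockout for some of the genes named above. In the same model 0 of 17247 genes passed between IR_Matn3_ko and IR_WT (0%), while 2302 had an unadjusted p under 0.05 and the smallest adjusted p was 0.0752. DESeq2 called 668 genes in that contrast and limma on log2(FPKM + 1) 44. Without the library labelled IR_Matn3_ko 2 edgeR called 61 and without IR_WT 1 37. Hmox1 had 125, 96.3 and 158 CPM in IR_Matn3_ko, 48.4, 40.6 and 57.2 CPM in IR_WT and 4.64, 7.00 and 6.36 CPM in sham_WT (log2 fold change 1.37, adjusted p = 0.0752 against IR_WT). Plin2 had 56.7, 60.8 and 59.7 CPM in IR_Matn3_ko, 32.0, 20.3 and 20.2 CPM in IR_WT and 6.10, 4.70 and 5.89 CPM in sham_WT (log2 fold change 1.29, adjusted p = 0.0752). For both genes all 3 IR_Matn3_ko libraries lay above all 3 IR_WT libraries, which lay above all sham_WT libraries. Both, like Cbln2 below, had the smallest adjusted p of this contrast among all 17247 genes, so their lack of overlap is no separate result. The share of all genes without overlap between IR_Matn3_ko and IR_WT was not counted. Spp1 had 571, 711 and 562 CPM in IR_Matn3_ko, 363, 203 and 139 CPM in IR_WT and 7.63, 10.6 and 11.9 CPM in sham_WT (log2 fold change 1.39, adjusted p = 0.123). Slc1a2 ran the opposite way, with 1450.5, 1083 and 1519 CPM in IR_Matn3_ko, 2025, 2312 and 2559 CPM in IR_WT and 2854, 3314 and 2948 CPM in sham_WT (log2 fold change -0.77, adjusted p = 0.116). Cbln2 had 12.7, 12.6 and 12.4 CPM in IR_Matn3_ko, 20.7, 21.6 and 30.2 CPM in IR_WT and 44.3, 40.9 and 42.3 CPM in sham_WT (log2 fold change -0.94, adjusted p = 0.0752). Gfap overlapped between the ischemic groups, with 685, 380.3 and 615 CPM in IR_Matn3_ko, 592, 459.6 and 564 CPM in IR_WT and 35.9, 70.0 and 49.1 CPM in sham_WT (log2 fold change 0.06, adjusted p = 0.952), and so did Vwf (log2 fold change 0.09, adjusted p = 0.876). None of these contrasts with IR_WT passed, which does not show that the ischemic groups are alike. How much of each difference from sham_WT belongs to genotype and how much to ischemia cannot be told apart.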

How the data were processed

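RNA from mouse cortex was sequenced in 9 libraries, 3 per group. Per the submitters' processing notes, reads were trimmed with cutadapt 1.9, aligned with HISAT2 2.0.4 and assembled with StringTie 1.3.4d, UMI-tools, DESeq2 and edgeR were used, and the build is given as GRCh38, a human one. The table's gene identifiers and coordinates are those of the mouse (GRCm38) and are printed as given. The deposited table holds a raw count and an FPKM value per gene and library, made by the authors. The sources used here do not say whether counts are molecules or reads, or whether they use strand. The table held no column that was left unused.

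The 17247 genes that reached 0.5 FPKM in 3 or more libraries were tested with edgeR 4.0.16 (quasi-likelihood test, TMM factors 0.9485 to 1.07, all 9 libraries in 1 model by group, 6 residual degrees of freedom, Benjamini-Hochberg adjustment over all tested genes, threshold 0.05). CPM are scaled by the TMM factors, except for Matn3 and for marker sums, which are relative to the library total. Where a group had no count, a fold is a bound against a floor of 3 counts per library, which covers counting error only. Alternatives used limma 3.58.1, DESeq2 1.42.0, other scalings and filters, a replicate block, a library set term (small intestine markers above 50 CPM) and each library left out. R 4.3.3, Python 3.11.15, numpy 2.4.6, pandas 2.3.3 and matplotlib 3.10.9 were used. The replicates of each group differed by more than counting noise (chi-square per degree of freedom 23.8 to 80.9). Tested on simulated counts for this comparison over 17247 genes, edgeR found 64 of the 100 genes given a 2-fold change, 97 of the 100 given a 4-fold change and 12 unchanged genes, while DESeq2 found 69, 96 and 43. The changed genes were drawn only from those above a minimum mean count, and the spread of each gene followed the fitted trend. No library set was simulated and all other genes were unchanged, so these figures need not hold for the real data.

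The comparison and the 52 gene lists were chosen with earlier results of these data known, and their counts are descriptions. Named by rule were the 12 largest changes and the 6 smallest p in each direction (among called genes with groups that did not overlap, a mean of at least 1 FPKM in a group and an established symbol), and from each list up to 4 called members with the largest change, or 2 where none was called. Other genes in the text (members that moved against their list or did not pass, neighbours of Matn3 and genes with a promoter match) were chosen after their values were seen. A symbol that belongs to several genes is given by the gene with the highest mean count. Some genes that the rule names are not reported here.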

Additional observations from a re-analysis of the deposited data

How the results depend on the processing

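The number of genes past the threshold between IR_Matn3_ko and sham_WT was 3887, and lay between 2139 (without sham_WT 1) and 4182 (without IR_WT 1) when 1 library was left out, with 2347 without sham_WT 2. It was 3866 with median-ratio scaling, 4666 with none, 2984 of 36835 genes with no expression filter, 3593 at 1 FPKM, 4803 by DESeq2, 4304 and 4006 by limma (pseudocounts 1 and 0.1) and 4017 from the 6 libraries of both groups alone. Under the library set term it was 1071, and the cause was not tested. That term was planned at 10 CPM of small intestine markers, which all 9 libraries exceeded, so 50 CPM was chosen after seeing the data. Between IR_Matn3_ko and IR_WT the count was 0, and 668 by DESeq2, 44 by limma on log2(FPKM + 1), 34 with the library set term, and between 0 and 61 with 1 library left out (61 without IR_Matn3_ko 2, 37 without IR_WT 1). Here too the cause was not tested.

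Of 203 named genes none changed direction when a library was left out, and 198 were past the threshold, 139 whichever library was left out and 109 with the library set term. With that term these log2 fold changes took the other sign: Reg3b -0.45, Apoa4 -0.80, Fabp2 -0.64, Lypd8 -0.50, Clca4b -0.67, Defa24 -0.21, Zg16 -0.57, Clec2h -0.51, Fcrla 4.07, Cd2 0.10, Anpep -0.10, Crym -0.0874, H2-Eb1 0.69, Hbb-bs 0.0678, Hba-a1 0.15, Ms4a1 0.48, Acta1 -0.31 and Apoa1 -6.30. The Matn3 difference (IR_Matn3_ko minus sham_WT, log2) was -0.48, and with 1 library left out it lay between -1.09 (without IR_Matn3_ko 2) and 0.23 (without sham_WT 3).

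The replicate numbers come from the sample names and no label ties same-numbered mice together. Same-numbered IR_Matn3_ko and sham_WT libraries correlated at 0.0708, 0.0174 and 0.0291 in their deviations from the group means. With the replicate block 3200 genes passed, 1663 higher, and of the named genes 12 missed the threshold. Genes near 1 CPM, such as Pf4 and the leukocyte markers, and genes with no count in a group limit what these libraries can show.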

Other observations

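Cell types at the edge of the dissected cortex were represented too. Striatal projection neuron markers, which would mark tissue beneath the cortex, summed to 205, 222 and 223 CPM in IR_Matn3_ko, against 286, 312 and 321 CPM in sham_WT. Of 9 tested, 3 fell and 0 rose (33.3%, against 22.5% of all tested genes), and 1 was lower with the library set term. Among the 3 were the phosphodiesterase Pde10a (log2 fold change -1.0 ± 0.18, adjusted p = 0.00473) and Penk, described above. Penk and Tac1 also belong to the interneuron and neuropeptide list, so they do not mark tissue beneath the cortex alone. Of 10 meningeal fibroblast markers 2 rose and 2 fell, and the lower calls numbered 0 with the library set term and between 0 and 4 with 1 library left out (4 without sham_WT 1). Aldh1a2, which makes retinoic acid, had 9.06, 9.45 and 5.92 CPM in IR_Matn3_ko, against 2.00, 0.778 and 1.81 CPM in sham_WT (log2 fold change 2.41 ± 0.35, adjusted p = 0.00147). Osteoglycin, Ogn, had 0.691, 0.903 and 0.675 CPM in IR_Matn3_ko, against 1.55, 7.35 and 8.02 CPM in sham_WT (log2 fold change -2.89 ± 0.74, adjusted p = 0.021), and the growth factor Igf2 fell as well (log2 fold change -1.78 ± 0.47, adjusted p = 0.0239). The water channel Aqp1, made by choroid plexus and by other tissues, rose (log2 fold change 1.33 ± 0.36, adjusted p = 0.0263). It was the 1 called gene of 4 tested choroid plexus markers (25%, near the 22.5% of all tested genes). Erythroid markers summed to 194, 230.2 and 93.5 CPM in IR_Matn3_ko, against 260.0, 335 and 328 CPM in sham_WT, and 0 of 5 passed in edgeR (Hbb-bs -0.92 and Hba-a1 -1.03, near-identical globin copies). Pde10a (adjusted p = 0.0943), Ogn (adjusted p = 0.606), Igf2 (adjusted p = 0.655) and Aqp1 (adjusted p = 0.397) missed the threshold with the library set term. Ogn lost the call without 4 of the single libraries (adjusted p up to 0.0688), Igf2 without 5 of the single libraries (adjusted p up to 0.0779) and Aqp1 without IR_Matn3_ko 1, IR_Matn3_ko 2 or IR_Matn3_ko 3 (adjusted p up to 0.0643).

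Among tissues that do not belong to the brain, 13 of 15 tested small intestine markers were called higher and 10 of 11 B cell markers lower, 0 of either with the library set term. Leaving out 1 library moved these counts to between 2 and 15 and to between 2 and 11. The small intestine markers define the library set by their sum, so their loss under its term is built in. Of 8 keratinocyte markers 1 was called higher and 3 lower, and of 9 cartilage markers 2 lower (22.2%, near the 22.5% of all tested genes). Of 3 skeletal muscle markers 2 were called higher and of 2 liver markers 1 higher. Adding the library set term gave 1 lower call in cartilage and 0 calls in the other 3 lists. Keratinocyte lower calls were 1 without any single library of IR_Matn3_ko or sham_WT, and the higher one was lost without 5 of the single libraries. Cartilage lower calls were 1 without IR_Matn3_ko 2, IR_Matn3_ko 3, sham_WT 2 or sham_WT 3 and 6 without IR_WT 1, and muscle higher calls lay between 0 and 2. The liver and intestine apolipoprotein Apoa1 had 40.0, 72.4 and 26.8 CPM in IR_Matn3_ko, 0, 67.1 and 50.2 CPM in IR_WT and 0.159, 0.0926 and 0.132 CPM in sham_WT (log2 fold change 8.49 ± 1.84 against sham_WT, adjusted p = 0.0107). The muscle creatine kinase Ckm had 2.15, 1.91 and 2.75 CPM in IR_Matn3_ko, against 0.178, 0.278 and 0 CPM in sham_WT (log2 fold change 3.88 ± 1.01, adjusted p = 0.0223). The cartilage collagen Col11a2 had 9.96, 9.30 and 8.13 CPM in IR_Matn3_ko, against 25, 35.6 and 33.4 CPM in sham_WT (log2 fold change -1.78 ± 0.21, adjusted p = 0.000528), and the skin galectin Lgals7 rose (log2 fold change 2.85 ± 0.79, adjusted p = 0.0286). The 1 tested pancreas marker, Pnlip, did not pass (-0.64). Their source was not tested. Apoa1 (adjusted p = 0.248), Ckm (adjusted p = 0.963) and Lgals7 (adjusted p = 0.161) missed the threshold with the library set term. Ckm lost the call without IR_Matn3_ko 3 or sham_WT 1 (adjusted p up to 0.074) and Lgals7 without 5 of the single libraries (adjusted p up to 0.0973).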
